A study of Homo sapiens with 6 samples.

Results

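The cytosolic ribosomal protein genes encode the proteins that, with ribosomal RNA, make up the large and the small subunit of the ribosome outside mitochondria. They were taken as the protein-coding genes on autosomes or the X chromosome whose symbol is RPL or RPS followed by a number, with an optional A or X, together with RPLP0, RPLP1, RPLP2 and RPSA. This gave 77 of 60683 genes in the deposited count table, 46 of the large and 31 of the small subunit, and pseudogenes and the paralogs whose symbol ends in L stayed out. Messenger RNA was sequenced from the human osteosarcoma line 143B, which descends from HOS cells, in 3 libraries from cells given TPBC-PEG and 3 from cells given PBS, the buffer used as control, each for 24 h. TPBC-PEG is the agent that the series sets beside photodynamic therapy, in which a compound forms reactive oxygen species under light. The titles give its dose as 3 µM and the treatment protocol as 300 µM, so the dose is not settled, and light exposure of the sequenced cells is not stated. Replicates are not described as separate cultures, and p-values therefore measure a spread between samples that may be technical.

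Library totals were 19171372, 20486584 and 15726323 counts with TPBC-PEG and 19412955, 18186250 and 16328710 with PBS. A ribosomal protein gene had 75 to 59539 counts in a library, and all 77 passed the filter on low counts. The mesenchymal marker VIM was at 2344 CPM in TPBC-PEG and 2577 CPM in PBS cells, where CPM are counts per 1e+06 counts after TMM scaling. COL1A1 was at 19.7 CPM with TPBC-PEG and 27.4 CPM with PBS, while COL1A2, the other chain of type I collagen, was at 0.0503 CPM with TPBC-PEG and 0.0594 CPM with PBS. Of the 6 mesenchymal and bone markers tested 1 was called higher and 4 lower, at log2 fold changes of -0.57 to 0.55, and their part in the results was not tested. The blood markers summed to 0.0541 CPM in TPBC-PEG and 0.0210 CPM in PBS cells and the endothelial markers to 0.268 CPM in TPBC-PEG and 0.383 CPM in PBS cells. The 3 epithelial markers summed to 17.1 CPM in TPBC-PEG and 16.2 CPM in PBS cells, nearly all of it EPCAM, since CDH1 was at 0.0825 CPM in TPBC-PEG and 0.0210 CPM in PBS cells and KRT5 at 0.0343 CPM in TPBC-PEG and 0.0580 CPM in PBS cells.

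A ribosome holds most of these proteins in a single copy each, so a cell is known to make them in matched amounts. Much of that matching occurs in translation: the messengers begin with a C and a run of C and T bases, the terminal oligopyrimidine (TOP) element, through which mTORC1 and the protein LARP1 set how strongly they are translated and how stable they are. Proteins made in excess are degraded, and when assembly stalls, RPL5 and RPL11 bound to 5S ribosomal RNA are known to bind and hold back MDM2, a ubiquitin ligase.

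The sequences around the annotated starts are shown for the genes that were called in every setting tried, 5 higher and 3 lower, since they carry the differences that no setting ended. Each runs from 10 bases before the first transcribed base to 20 bases from it on, 5′ to 3′ on the transcribed strand, and capitals mark the unbroken run of C and T that covers the first transcribed base. They come from RefSeq on GRCh38.p14.
RPL3 (chr22:39319604-39319633, minus strand): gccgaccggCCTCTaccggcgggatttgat
RPL12 (chr9:127451387-127451416, minus strand): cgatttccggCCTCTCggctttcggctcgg
RPL10 (chrX:154398367-154398396, plus strand): ggaggagcgCCTCTTTCCCTTCggtgtggt
RPL10A (chr6:35468391-35468420, plus strand): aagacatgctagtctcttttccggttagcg
RPL37A (chr2:216498834-216498863, plus strand): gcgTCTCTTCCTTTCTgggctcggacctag
RPL36A (chrX:101391001-101391030, plus strand): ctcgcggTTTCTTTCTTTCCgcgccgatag
RPL21 (chr13:27251548-27251577, plus strand): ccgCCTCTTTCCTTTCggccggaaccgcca
RPS26 (chr12:56041908-56041937, plus strand): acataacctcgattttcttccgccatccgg
The run was 13 bases long in RPL10, RPL37A, RPL36A and RPL21, 6 in RPL12 and 5 in RPL3. RPL10A and RPS26 had a base other than C or T at the annotated start and so no run there. RPL10 has 3 starts in the table, of which 1 is shown. Among the genes shown, a start with a run of C and T occurred on both sides of the comparison.

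The table held a start for 62 of the 77 genes, and RPL5, RPL7, RPL8, RPL23, RPL23A, RPL30, RPL37, RPS2, RPS15A and RPS20 are among the others. A start was counted as TOP where the first transcribed base was C and each of the next 4 was C or T, read on the transcribed strand alone. This held for 46 of 62 ribosomal protein genes (74.2%) and for 4.07% of all 35116 annotated starts. Counted by start, 46 of the 77 starts of these genes had it (59.7%). Of the 8 starts shown, those of RPL12, RPL10, RPL37A, RPL36A and RPL21 met this definition and those of RPL3, RPL10A and RPS26 did not. It was held by 5 of 7 genes called higher, by 6 of the 8 genes called lower that have an entry, and by 35 of 47 such genes that were not called. A match describes the letters at an annotated start and does not show where transcription began in these cells.

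With TMM scaling and no trend removed, the ribosomal protein messengers as a group stayed close to their level with PBS. A minority differed in each direction. Of 77 genes 7 were called higher and 12 lower with TPBC-PEG, 24.7% in all, against 33.2% of all 15846 genes tested (edgeR quasi-likelihood test, Benjamini-Hochberg adjusted p under 0.05). By direction the background was 16.2% called higher and 16.9% called lower. The median log2 fold change, TPBC-PEG over PBS, was -0.01 for the ribosomal protein genes and 0.01 for all genes tested. The median of the ribosomal protein genes was positive, at 0.04, when libraries were scaled by size alone. It was 0.13 with a trend with expression level removed. The log2 fold changes of 67 genes lay within 0.2 of 0, the quartiles were -0.05 and 0.07, and RPL36A was the one called gene that differed 1.5-fold or more. The libraries of the groups did not overlap for 25 genes, 11 above and 14 below, against 43.4% of all genes tested (22.1% above and 21.4% below).

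**Figure D1:**
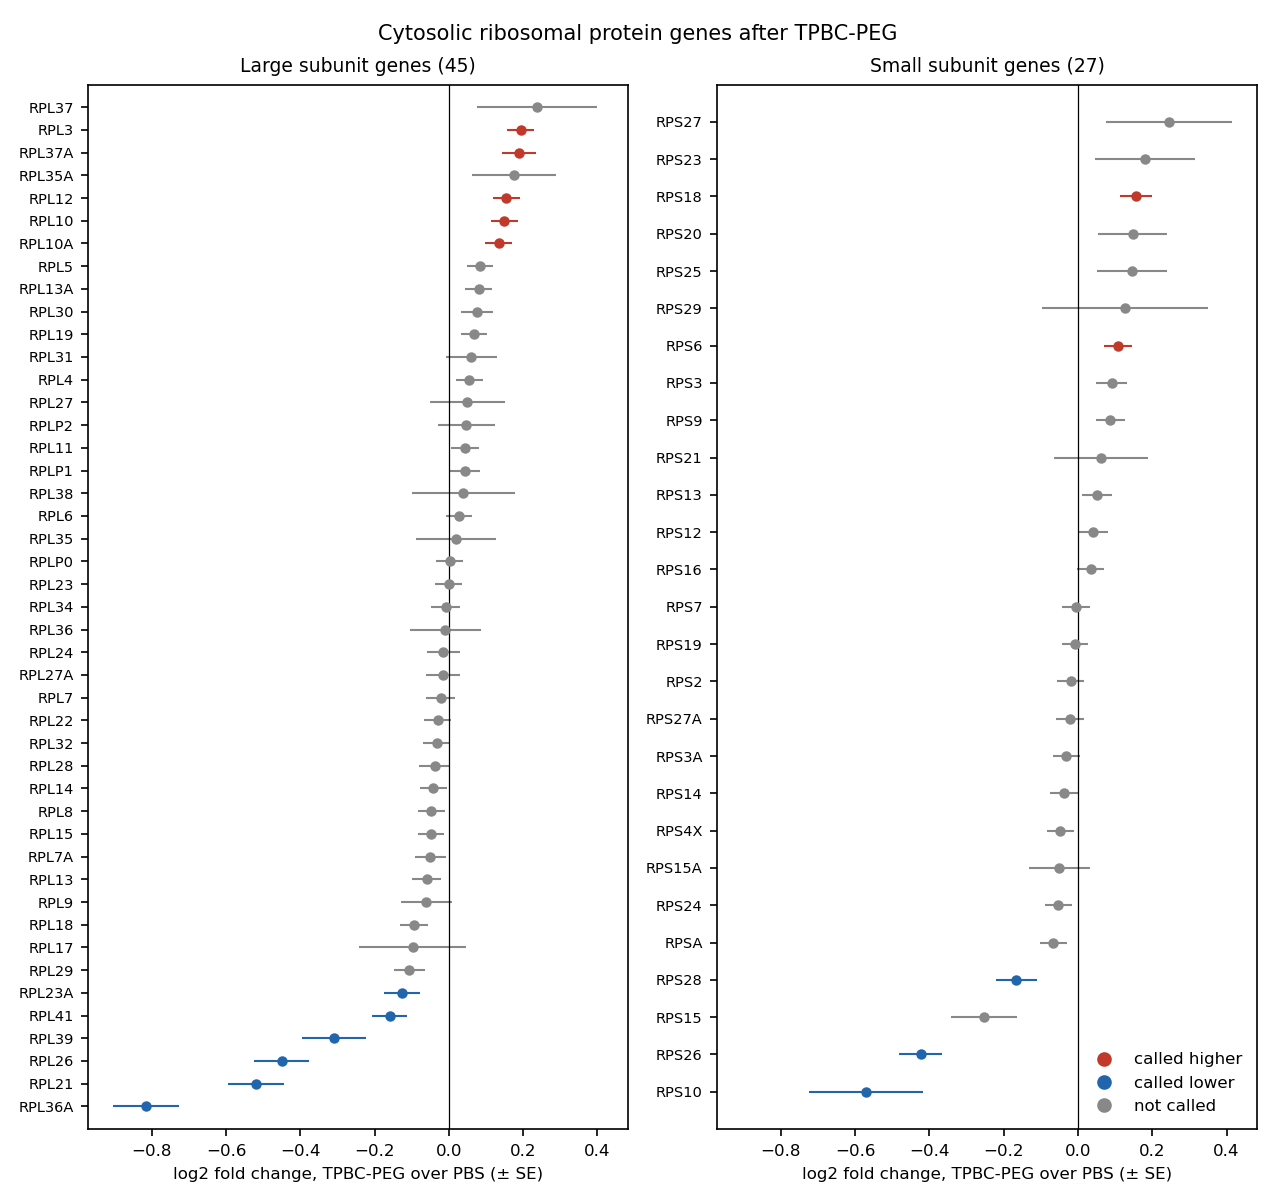
Log2 fold change of cytosolic ribosomal protein genes, TPBC-PEG over PBS (x axis), with bars of 1 SE, for 45 large subunit genes and 27 small subunit genes. Most points lie within 0.2 of 0, called genes are in colour, and the genes called lower reach further from 0 (RPL36A at -0.82) than those called higher (RPL3 at 0.19).

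How many genes were called depended on the settings. Without PBS replicate 1 there were 14 higher and 15 lower, where 2199 of all 16150 genes tested were higher and 2515 lower. There were 14 higher and 8 lower with library size scaling and 14 higher and 12 lower with limma-voom. Of all 15846 genes tested, library size scaling called 3213 higher and 1971 lower, and limma-voom 2509 higher and 2608 lower. With a trend with GC content removed 9 were higher and 8 lower, and 36 were higher and 7 lower once a trend with expression level was removed from the whole table. Across all genes tested, removing the GC trend called 2626 higher and 2383 lower, and removing the level trend 2880 higher and 2058 lower. RPL23A, RPL41 and RPS28 lost their calls with library size scaling and with the level trend removed. RPL3, RPL12, RPL10, RPL10A and RPL37A were called higher, and RPL36A, RPL21 and RPS26 lower, in all 22 settings.

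As a share of the raw counts, the ribosomal protein genes took 6.27%, 6.17% and 6.27% with TPBC-PEG, against 6.05%, 5.75% and 5.87% with PBS. Every TPBC-PEG library was above every PBS library, and the means were 6.23% ± 0.0583 and 5.89% ± 0.150 (SD, n = 3 each). As a share of counts on nuclear protein-coding genes they were 6.79% ± 0.0687 with TPBC-PEG and 6.48% ± 0.160 with PBS, again without overlap. Mitochondrially encoded genes took 4.81% ± 0.0954 with TPBC-PEG and 5.80% ± 0.466 with PBS. After TMM scaling the summed levels were 61726, 60916 and 61844 CPM with TPBC-PEG and 61250, 57968 and 60404 CPM with PBS, which overlap. These are shares of a library, so less RNA per cell and fewer cells of a kind cannot be told apart from them.

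The counted levels of the messengers differed widely although their proteins are used in like amounts. Per kilobase of coding transcript (the median length of the annotated basic protein-coding transcripts) the highest level was 408-fold the lowest, over all 6 libraries. RPS18 was highest at 3725 CPM per kb with TPBC-PEG and 3344 CPM per kb with PBS. By the mean over all libraries it was followed by RPS24, RPLP1, RPS27 and RPS2, at 2593, 2609.6, 2418 and 2206 CPM per kb with TPBC-PEG and 2691, 2534, 2039.6 and 2237 CPM per kb with PBS. The order was not the same in each group: RPL37A, at 2361 CPM per kb with TPBC-PEG and 2071 CPM per kb with PBS, was above RPS2 with TPBC-PEG, and RPS27 was below RPS2, RPLP0 and RPL37A with PBS. RPS24 and RPLP1 differed from each other by less than the SD of RPLP1 in each group. Among the lowest, RPS10, RPL17, RPL36A and RPS15A had 6.99, 8.62, 20.6 and 29.2 CPM per kb with TPBC-PEG, against 10.3, 9.17, 36.1 and 30.2 CPM per kb with PBS. The order of RPS10 and RPL17 rests on TPBC-PEG cells, since RPL17 was the lower of the pair with PBS. Of the level summed over a gene and its pseudogenes, the pseudogenes held 44.9% for RPS10, 96.1% for RPL17 and 52.0% for RPL36A. For RPS15A they held 3.01%. The low counted levels of RPS10, RPL17 and RPL36A may therefore understate these messengers. How far reads were split between gene and pseudogenes was not tested.

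Level and direction went together among these genes. The 11 genes with a mean under 100 CPM all had a negative log2 fold change, with a median of -0.36, and 8 of them were called lower, where 12.7% of all 13585 genes tested under 100 CPM were called lower and 28.7% in either direction, with a median of 0.03. They included RPL9, RPL17, RPL21, RPL26, RPL36A, RPL39, RPS10, RPS15A, RPS26 and RPS28. Of the 66 genes at 100 CPM or more, 7 were called higher and 4 lower and the median was 0.02. Across all genes tested at that level (2261), 17.7% were called higher and 42.1% lower, 59.8% in all, and the median was -0.07. Across the 77 genes Spearman's rho between log2 fold change and log2 CPM was 0.51, and 0.24 within the 66. The genes share libraries and many share sequence with pseudogenes, so this is a description.

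**Figure D2:**
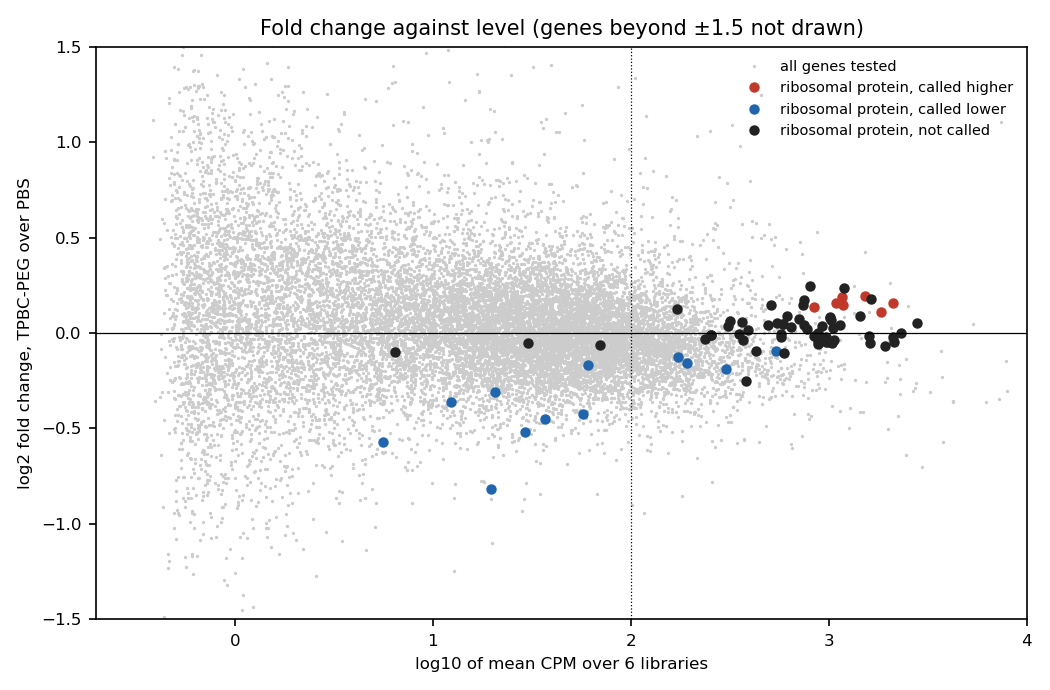
Log2 fold change, TPBC-PEG over PBS (y axis), against log10 of the mean CPM over 6 libraries (x axis) for all genes tested (grey) and the cytosolic ribosomal protein genes (coloured by call), with a dotted line at 100 CPM. The ribosomal protein genes left of the line all lie below 0, and those right of it lie on both sides.

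In the large subunit 5 of 46 genes were called higher and 7 lower, 26.1% in all, against 33.2% of all genes tested. At 100 CPM or more, where 40 of the 46 lie, 59.8% of all genes tested were called. RPL3, which reaches with its extensions to the peptidyl transferase centre, had 1592, 1671 and 1606 CPM with TPBC-PEG, against 1381, 1453 and 1424 CPM with PBS. The groups did not overlap, and RPL3 (chromosome 22, 39312882 to 39320389 in GRCh38) rose by a log2 fold change of 0.19 ± 0.04 (SE), a fold of 1.14 (edgeR adjusted p = 2.61e-05). RPL37A, a small zinc-binding protein, had 1259.6, 1260.1 and 1228 CPM with TPBC-PEG, against 1182, 990.4 and 1115 CPM with PBS. All TPBC-PEG libraries were above, by a log2 fold change of 0.19 ± 0.05 (adjusted p = 0.00212), and the PBS libraries were spread more widely, with PBS replicate 2 the lowest.

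RPL10, which joins the large subunit late and lies close to the peptidyl tRNA site, had 1216, 1231 and 1277 CPM with TPBC-PEG, against 1131, 1125 and 1101 CPM with PBS. The groups did not overlap and the log2 fold change was 0.15 ± 0.04 (edgeR adjusted p = 0.000792). In the annotation 55.5% of the exon length of RPL10 overlaps another gene, and whether reads were counted by strand is not stated in the labels. RPL10A, which forms the mobile stalk at the exit site, had 860.0, 886 and 897 CPM with TPBC-PEG, against 834, 768 and 806 CPM with PBS. It was above in each TPBC-PEG library, by a log2 fold change of 0.13 ± 0.04 (adjusted p = 0.00325).

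The acidic stalk recruits the elongation factors. Of its genes RPL12, RPLP0, RPLP1 and RPLP2, only RPL12 was called. The share called was 33.2% of all genes tested and 59.8% of those at 100 CPM or more, where these genes lie. RPL12, which sits at the stalk base, had 1131, 1149 and 1149 CPM with TPBC-PEG, against 1016, 1036 and 1027 CPM with PBS. Its SD within each group was the smallest in proportion to its mean among the called genes, and the log2 fold change was 0.15 ± 0.04 (edgeR adjusted p = 0.00042). RPLP0, the stalk scaffold and a frequent reference gene in quantitative PCR, had 2315, 2370.2 and 2305 CPM with TPBC-PEG, against 2224, 2395 and 2362 CPM with PBS. Its groups overlapped and its log2 fold change was 0.00 ± 0.04 (adjusted p = 0.972). RPLP1 averaged 1161 ± 37.4 CPM with TPBC-PEG and 1128 ± 87.1 CPM with PBS, and RPLP2 597 ± 21.5 and 578 ± 61.9 CPM with TPBC-PEG and PBS (SD, n = 3 each), and neither passed the test.

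The 5S particle genes did not pass the test. RPL5 had 1056, 1046 and 1048 CPM with TPBC-PEG, against 977, 982 and 1011 CPM with PBS, a log2 fold change of 0.08 ± 0.04 (edgeR adjusted p = 0.0598, unadjusted p = 0.0208). Its libraries did not overlap between groups, and it was called higher in 8 of the 22 settings. RPL11 averaged 759.8 ± 18.2 CPM with TPBC-PEG and 737 ± 44.2 CPM with PBS (SD, n = 3 each; adjusted p = 0.424), with overlap. RPL4, which lines the exit tunnel, averaged 2849 ± 18.9 CPM with TPBC-PEG and 2743 ± 29.6 CPM with PBS, and its log2 fold change of 0.05 ± 0.04 did not pass either (adjusted p = 0.252).

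Around the exit of the tunnel through which the new protein leaves, 3 of 8 genes were called lower and none higher, where 33.2% of all genes tested were called and 16.9% were called lower. Of the 8 genes 5 were at 100 CPM or more, where 42.1% of all genes tested were called lower. Under 100 CPM it was 12.7%. RPL26 had 33.6, 27.7 and 32.6 CPM with TPBC-PEG, against 47.1, 39.1 and 41.5 CPM with PBS, a log2 fold change of -0.45 ± 0.07 (edgeR adjusted p = 6.69e-06). RPL39, a very small protein that lines the tunnel, had 18.9, 19.8 and 16.2 CPM with TPBC-PEG, against 24.8, 21.5 and 22.1 CPM with PBS, a log2 fold change of -0.31 ± 0.09 (adjusted p = 0.00375). In both genes the groups did not overlap, but both calls ended when each gene was summed with its pseudogenes. RPL23A, a docking site for factors that meet the new protein, had 166, 167 and 162 CPM with TPBC-PEG, against 166, 199 and 175 CPM with PBS. Here the groups overlapped, the log2 fold change was -0.13 ± 0.05 (adjusted p = 0.0421), and the call was kept in 10 of 22 settings. Leaving out any TPBC-PEG library, PBS replicate 2 or PBS replicate 3 ended it, at adjusted p of 0.0866, 0.0815 and 0.162 without TPBC-PEG replicates 1, 2 and 3, and 0.41 and 0.0625 without PBS replicates 2 and 3. RPL17, RPL19, RPL22, RPL31 and RPL35 did not pass the test. RPL22 averaged 235 ± 5.62 CPM with TPBC-PEG and 239.9 ± 2.23 CPM with PBS (SD, n = 3 each).

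The other large subunit genes called lower included RPL36A, RPL21 and RPL41. RPL36A, which lies near the tRNA exit site, had 14.4, 12.4 and 15.9 CPM with TPBC-PEG, against 26.1, 24.7 and 24.0 CPM with PBS. The groups stood well apart, and RPL36A (chromosome X, 101390824 to 101396154) fell to a fold of 0.57, a log2 fold change of -0.82 ± 0.09 (edgeR adjusted p = 2e-10). RPL21 had 25.5, 23.2 and 23.2 CPM with TPBC-PEG, against 33.1, 32.3 and 38.0 CPM with PBS, and its log2 fold change was -0.52 ± 0.07 (adjusted p = 1.9e-07). RPL41, the shortest of the proteins, had 184, 189.7 and 171 CPM with TPBC-PEG, against 193, 221 and 195 CPM with PBS, a log2 fold change of -0.16 ± 0.05 (adjusted p = 0.008). The libraries of RPL41 did not overlap, and its call ended without TPBC-PEG replicate 3 (adjusted p = 0.0672) or PBS replicate 2 (adjusted p = 0.0888).

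**Figure D3:**
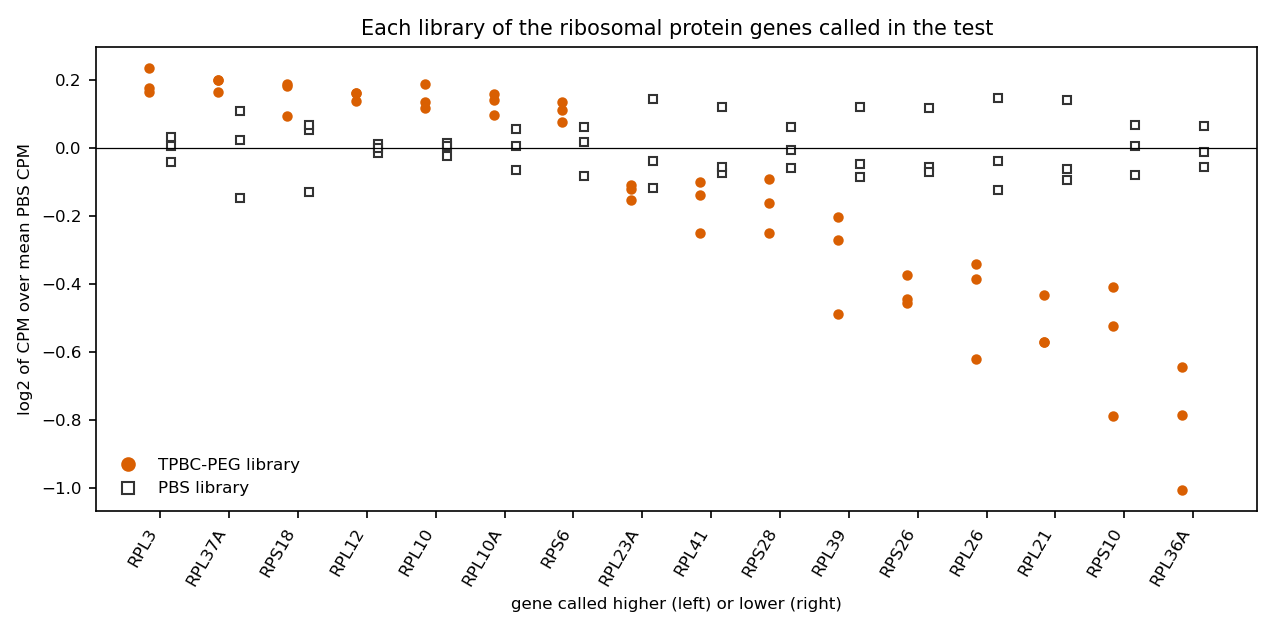
Each library's CPM relative to the mean of the PBS libraries on a log2 scale (y axis) for 16 of the 19 called genes (x axis), with TPBC-PEG libraries as filled circles left of PBS libraries as open squares. RPL36A has TPBC-PEG points furthest from its PBS points, and RPL12 has the narrowest spread within both groups.

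In the small subunit 2 of 31 genes were called higher and 5 lower, 22.6% in all, against 33.2% of all genes tested. At 100 CPM or more, where 26 of the 31 lie, 59.8% of all genes tested were called. RPS18, a protein of the head that touches the large subunit, had 2279.8, 2147 and 2289 CPM with TPBC-PEG, against 2086, 1836 and 2107 CPM with PBS. The groups did not overlap and the log2 fold change was 0.16 ± 0.04 (edgeR adjusted p = 0.00468), but without PBS replicate 2, the lowest library, the adjusted p was 0.0757. RPS6, the substrate of the S6 kinases, had 1859, 1905 and 1938 CPM with TPBC-PEG, against 1784, 1665 and 1841 CPM with PBS. Its log2 fold change of 0.11 ± 0.04 (adjusted p = 0.0215) no longer passed without TPBC-PEG replicate 2, TPBC-PEG replicate 3 or PBS replicate 2, at adjusted p of 0.0848, 0.0888 and 0.209, or with the GC trend removed (adjusted p = 0.0561).

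Near the channel through which the messenger leaves, RPS26 and RPS28 were called lower and RPS14 was not, where 16.9% of all genes tested were called lower. RPS26, which contacts the messenger upstream of the start codon and is mutated in some cases of Diamond-Blackfan anaemia, had 48.0, 47.7 and 50.5 CPM with TPBC-PEG, against 62.9, 62.3 and 71.0 CPM with PBS. The groups did not overlap, and RPS26 (chromosome 12, 56041351 to 56044697) fell by 0.42 ± 0.06 on the log2 scale (edgeR adjusted p = 5.07e-08). RPS28 had 53.9, 60.2 and 57.3 CPM with TPBC-PEG, against 63.8, 66.9 and 61.5 CPM with PBS, a log2 fold change of -0.17 ± 0.06 (adjusted p = 0.0163). RPS28 did not overlap between groups either, but its call ended without TPBC-PEG replicate 1 (adjusted p = 0.14) or PBS replicate 2 (adjusted p = 0.0859). RPS14, whose loss marks the 5q deletion syndrome, averaged 1052 ± 8.13 CPM with TPBC-PEG and 1081 ± 58.1 CPM with PBS (SD, n = 3 each; adjusted p = 0.469).

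RPS10 was also called lower, at a low level. It had 3.85, 4.63 and 5.02 CPM with TPBC-PEG, against 6.31, 6.98 and 6.68 CPM with PBS, a log2 fold change of -0.57 ± 0.15 (edgeR adjusted p = 0.00279). Its groups did not overlap, but its call ended when it was summed with its pseudogenes (adjusted p = 0.204). In the annotation 39.4% of its exon length overlaps another gene. At the messenger entry RPS2 averaged 2106 ± 15.9 CPM with TPBC-PEG and 2135 ± 50.9 CPM with PBS, and RPS3 1477 ± 37.4 and 1386 ± 107 CPM with TPBC-PEG and PBS (SD, n = 3 each). Neither passed the test (adjusted p = 0.725 and 0.094), and nor did RPS19, the gene most often mutated in Diamond-Blackfan anaemia, RPS24, RPS27A, which is made as a fusion to ubiquitin, RPSA or RPL7 at log2 fold changes of -0.01, -0.05, -0.02, -0.07 and -0.02.

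The largest positive fold changes were not called by the edgeR test, and their PBS libraries were spread widely. RPS27, a zinc finger protein, had 861, 838 and 905 CPM with TPBC-PEG, against 872, 575 and 749.5 CPM with PBS, a log2 fold change of 0.25 ± 0.17 (edgeR adjusted p = 0.373). RPL37, a zinc-binding protein, followed at 0.24 ± 0.16 (adjusted p = 0.364). In both, PBS replicate 2 was the lowest library. Both were called higher by limma-voom (adjusted p = 0.00906 for RPS27 and 0.00836 for RPL37) and with non-robust estimation in edgeR (adjusted p = 0.0124 and 0.0118). Over the 77 genes PBS replicate 2 held the lowest value of any library for 32 and PBS replicate 1 the highest for 28. The median SD of log2 CPM was 0.04 with TPBC-PEG and 0.09 with PBS for ribosomal protein genes, and 0.04 in both groups for all genes at 100 CPM or more. What set this spread among the PBS libraries was not tested.

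Reads of these genes can also align to their processed pseudogenes, copies of the messenger in the genome without introns. The annotation names 1586 pseudogenes after the 77 genes, and together they took 0.398% ± 0.00951 of the counts with TPBC-PEG and 0.363% ± 0.0275 with PBS (SD, n = 3 each). For most genes the pseudogenes held a small part of the summed level, but they held 96.1% for RPL17, 92.1% for RPL39, 85.2% for RPL21, 74.3% for RPS28, 65.5% for RPL41, 52.0% for RPL36A, 44.9% for RPS10 and 36.6% for RPL26. These include 7 of the 12 genes called lower. The readthrough genes RPL17-C18orf32, RPS10-NUDT3 and RPL36A-HNRNPH2, annotated over the same exons, were at 0 counts in all 6 libraries.

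With each gene summed with its pseudogenes and the whole table tested again, 8 genes were called higher and 8 lower. In that test 2496 of all 15733 genes were higher and 2840 lower. RPL36A kept its call at a smaller log2 fold change of -0.45 (edgeR adjusted p = 0.000516), and RPL21 at -0.16 (adjusted p = 0.000782). RPS26, with few counts on pseudogenes, was at -0.46 (adjusted p = 2.54e-09). The calls of RPL39, RPS10, RPL26, RPL41 and RPS28 ended, at 0.07, -0.19, -0.23, -0.05 and -0.08. RPL3, RPL12 and RPS18 were at 0.20, 0.15 and 0.15, near their values alone. Whether reads of the genes were assigned to the pseudogenes was not tested.

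**Figure D4:**
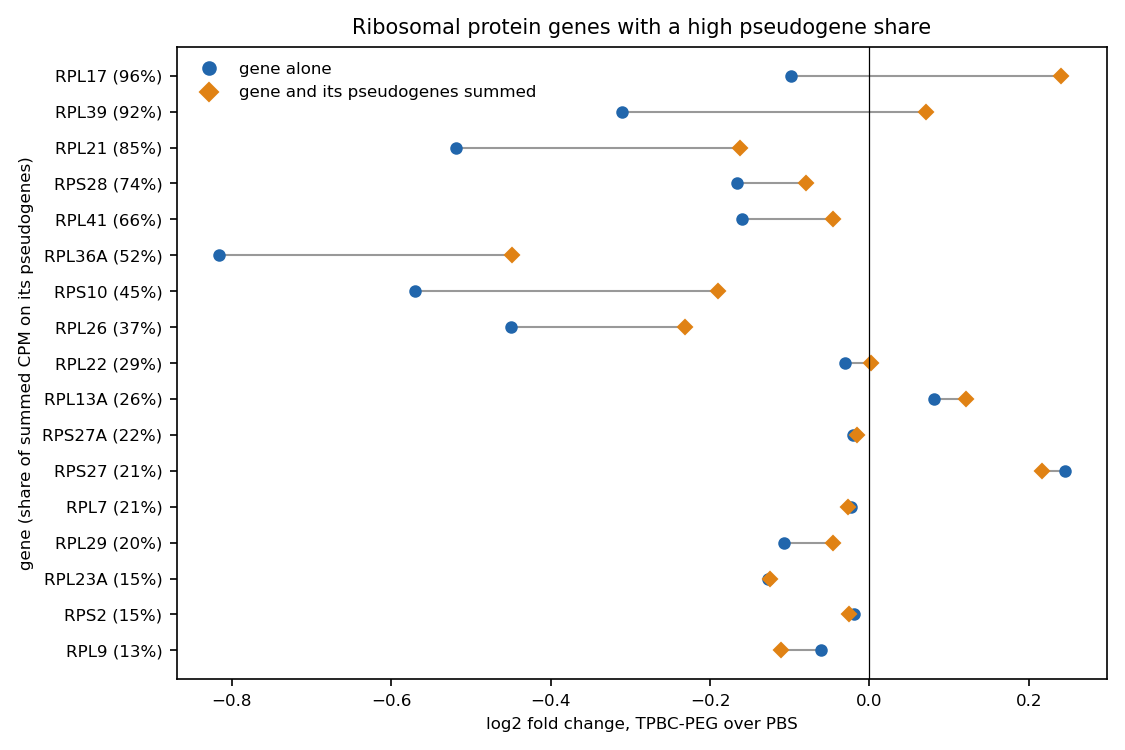
Log2 fold change, TPBC-PEG over PBS (x axis), of the gene alone (circle) and of the gene summed with its pseudogenes (diamond) for 17 genes with a high share of their summed CPM on pseudogenes (in brackets). RPL39, RPL17 and, by a small margin, RPL22 cross 0 when summed, and RPL36A, RPL21, RPS10 and RPL26 move towards it.

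Of the pseudogenes, 113 were tested, and 6 were called higher and 3 lower (7.96%, against 33.2% of all genes tested). Only 13 of the 113 were at 100 CPM or more, and 28.7% of all genes tested under 100 CPM were called. These shares are not matched for depth. RPLP0P2, a transcribed pseudogene, had 8.53, 11.8 and 7.96 CPM with TPBC-PEG, against 0.730, 1.44 and 1.07 CPM with PBS, a log2 fold change of 3.13 ± 0.21 (edgeR adjusted p = 4.4e-16), while its parent RPLP0 was level. RPL5P34 was higher by a log2 fold change of 0.51 (adjusted p = 0.0082) and RPL3P4 by 0.43 (adjusted p = 0.0206), in the direction of RPL3. RPL13P8 was lower at -0.79 (adjusted p = 0.000233). RPS26P6 was lower at -0.67 (adjusted p = 0.00281), and its parent RPS26 was also called lower. Some of these calls rested on single libraries: RPL5P34 did not pass without TPBC-PEG replicate 1 (adjusted p = 0.0866) or PBS replicate 2 (0.059), nor RPL3P4 without TPBC-PEG replicate 2 (0.0549) or PBS replicate 3 (0.0629), and without PBS replicate 2 RPS26P6 was at 0.0764.

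The genes also share sequence with other genes, which bears on how reads are assigned. Windows of 50 bases were taken along the coding transcript nearest each gene's median length. A median share of 26.3% of them occurred in another gene's transcripts, with 83.1% for RPS3A, 82.2% for RPS10 and 0% for RPL38. The 20 genes with at least 50% of windows shared had 1 called higher and 6 lower and a median log2 fold change of -0.05. The other 57 had 6 higher and 6 lower and a median of 0.04. The shares called were 35.0% and 21.1%, against 33.2% of all genes tested. Spearman's rho between log2 fold change and the share of windows was -0.36 over the 77 genes, and -0.44 with windows of 100 bases. With GC content it was -0.03 and with transcript length -0.05.

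The paralogs and fusion genes gave 1 higher and 4 lower of 8 tested, where 16.2% of all genes tested were higher and 16.9% lower. RPL26L1, the paralog of RPL26, had 84.8, 82.0 and 85.4 CPM with TPBC-PEG, against 115, 109 and 108 CPM with PBS, a log2 fold change of -0.40 ± 0.05 (edgeR adjusted p = 9.05e-10). RPL22L1 was lower at -0.27 ± 0.06 (adjusted p = 0.000533) and RPL7L1 at -0.13 ± 0.04 (adjusted p = 0.00476). RPL39L, better known from male germ cells, averaged 27.5 ± 2.51 CPM with TPBC-PEG and 23.7 ± 2.09 CPM with PBS (SD, n = 3 each), a log2 fold change of 0.22 ± 0.08 (adjusted p = 0.0283), where RPL39 itself was lower. RPL36AL averaged 171 ± 5.51 CPM with TPBC-PEG and 165 ± 10.9 CPM with PBS and did not pass, and nor did FAU and RPS27L. RPL39L was not called without TPBC-PEG replicate 1 or 2 or PBS replicate 2 (adjusted p = 0.0746, 0.223 and 0.211).

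Other messengers known to carry a TOP element, mostly translation factors, went in both directions. Of 17 tested 4 were called higher and 5 lower, and the median log2 fold change was 0.02. All 17 were at 100 CPM or more, and the share called was 52.9%, against 59.8% of all genes tested at that level. EIF4B, which helps unwind messengers, had 667, 712 and 687 CPM with TPBC-PEG, against 579, 585 and 657 CPM with PBS, a log2 fold change of 0.18 ± 0.04 (edgeR adjusted p = 0.000445). EIF3L was higher by 0.15 ± 0.04 (adjusted p = 0.00287), 51.8% of its exon length overlaps another gene, and without PBS replicate 1 its adjusted p was 0.0745. NPM1 and NAP1L1, both chaperones of histones, were each lower at -0.17 ± 0.04 (adjusted p = 0.000265 and 0.00026), and both were uncalled once the trend with level was removed (adjusted p = 0.992 and 0.43).

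Among 15 regulators of TOP messengers and of ribosomal protein gene expression, 4 were called higher and 6 lower, 66.7% in all, with a median of -0.02. Of all genes tested 33.2% were called, and of those at 100 CPM or more, where 5 of these regulators lie, 59.8%. MXD4, a partner of MAX that opposes MYC, was higher by a log2 fold change of 0.75 ± 0.18 (edgeR adjusted p = 0.000939), at 6.52 ± 0.343 CPM with TPBC-PEG and 3.84 ± 1.43 CPM with PBS (SD, n = 3 each). LARP1B, a relative of LARP1, had 48.7, 53.6 and 45.7 CPM with TPBC-PEG, against 35.1, 32.5 and 29.4 CPM with PBS, a log2 fold change of 0.61 ± 0.07 (adjusted p = 6.32e-10). RPS6KB2, an S6 kinase, was lower at -0.35 ± 0.06 (adjusted p = 1.77e-06) and EIF4EBP2, a translation repressor under mTORC1, at -0.23 ± 0.04 (adjusted p = 5.26e-06). The next genes were named after their values were seen. MYC itself was higher by 0.32 (adjusted p = 0.00535), and EIF4EBP1, a relative of EIF4EBP2, was higher by 0.17 (adjusted p = 0.00869) but not called without TPBC-PEG replicate 2 (adjusted p = 0.0738) or PBS replicate 1 (adjusted p = 0.051). LARP1 was at -0.09 (adjusted p = 0.0489), a call kept in 10 of 22 settings, and at 0.02 with the level trend removed.

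Genes for the escorts, importins and assembly kinases of single ribosomal proteins gave 2 called higher and 8 lower of 17 tested, with a median of -0.14. Of all genes tested 16.2% were higher and 16.9% lower, and of those at 100 CPM or more, where 8 of the 17 lie, 17.7% were higher and 42.1% lower. GRWD1, which escorts RPL3, had 51.4, 51.1 and 55.5 CPM with TPBC-PEG, against 70.2, 76.1 and 70.5 CPM with PBS, a log2 fold change of -0.46 ± 0.05 (edgeR adjusted p = 1.94e-09), while RPL3 was higher. LTV1, an assembly factor of the small subunit, was lower at -0.29 ± 0.07 (adjusted p = 0.00168), and 34.8% of its exon length overlaps another gene. TSR2, which escorts RPS26 and is named after its value was seen, was at -0.19 (adjusted p = 0.0374), a call kept in 13 of 22 settings. RIOK3, an atypical kinase, was higher by 0.21 ± 0.04 (adjusted p = 7.31e-05) and TNPO1, an importin, by 0.11 ± 0.04 (adjusted p = 0.0171). TNPO1 was not called without TPBC-PEG replicate 1 or 2 or PBS replicate 2 (adjusted p = 0.0797, 0.118 and 0.121).

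Among the readouts that stalled ribosome assembly is known to raise, CDKN1A and MDM2 were called higher and PPM1D was not. CDKN1A, the cell cycle inhibitor p21, had 70.3, 78.9 and 74.4 CPM with TPBC-PEG, against 57.2, 58.6 and 55.9 CPM with PBS, a log2 fold change of 0.38 ± 0.05 (edgeR adjusted p = 1.15e-07). MDM2 was higher by 0.17 ± 0.05 (adjusted p = 0.00682), and its adjusted p was 0.0566 without PBS replicate 1.

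The nuclear genes for mitochondrial ribosomal proteins that were called were nearly all lower. Of 77 tested 1 was called higher and 34 lower, 45.5% in all, where 33.2% of all genes tested were called and 16.9% were lower. The median log2 fold change was -0.15, set beside -0.01 for the cytosolic genes and 0.01 for all genes tested. MRPS12 had 25.7, 23.5 and 24.8 CPM with TPBC-PEG, against 29.9, 31.0 and 33.4 CPM with PBS, a log2 fold change of -0.35 ± 0.07 (edgeR adjusted p = 0.000157). MRPL41 was lower at -0.32 ± 0.08 (adjusted p = 0.00156), and MRPL46 was the gene called higher, by 0.62 ± 0.18 (adjusted p = 0.00681), at 4.78 ± 0.813 CPM with TPBC-PEG and 3.09 ± 0.134 CPM with PBS (SD, n = 3 each). The difference between the 2 ribosomes was not tested.

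**Figure D5:**
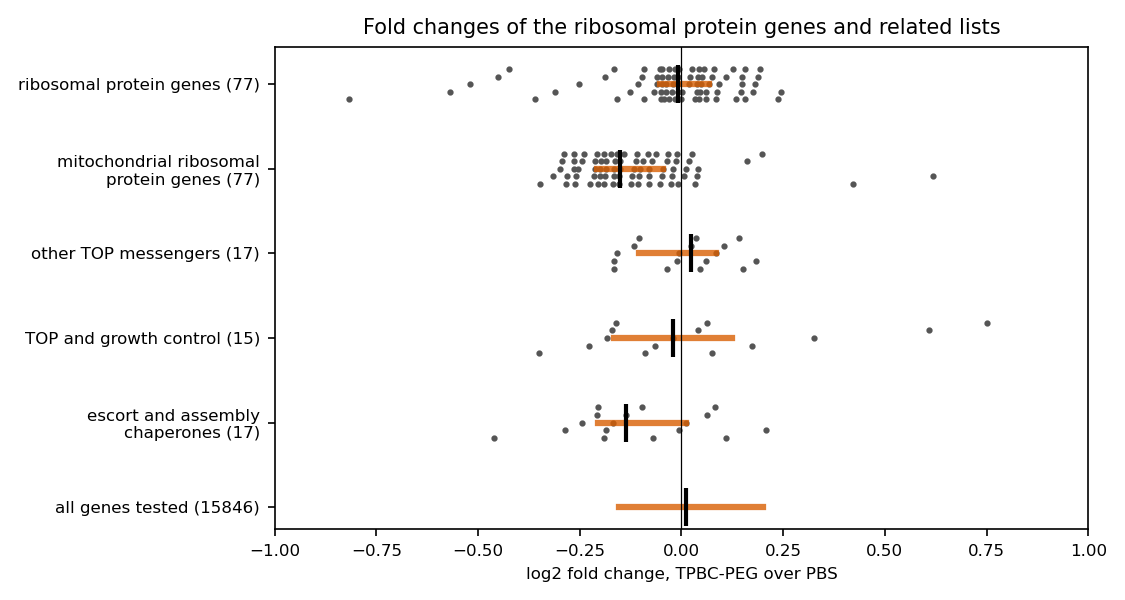
Log2 fold changes, TPBC-PEG over PBS (x axis), of the genes tested in each list (points), with the median (black bar) and the range from lower to upper quartile (orange); all genes tested are shown by median and quartiles alone. The cytosolic ribosomal protein genes centre on 0 with a tail of lower genes, and the mitochondrial ones centre on -0.15.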

How the data were processed

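Per the labels, RNA of 143B cells was sequenced after TPBC-PEG or PBS, 3 libraries each. The authors deposited raw read counts per gene, and the submitters' processing notes name HISAT2 and GRCh38. Not given in the sources used here are the HISAT2 version, the counter, the annotation, strandedness and how multiply aligned reads were treated. Shared reads of a gene and its pseudogenes may therefore be split or dropped. GENCODE 29 gave coordinates and covered 58496 of 60683 genes.

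The members and lists were chosen with earlier results of these data known. The counts were analysed with edgeR 4.0.16 (R 4.3.3): filterByExpr (minimum count 10, minimum total 15) left 15846 genes, libraries were TMM-scaled, and the robust quasi-likelihood test compared the groups with no covariate. A gene was called at a Benjamini-Hochberg adjusted p under 0.05 over all genes tested. The SE came from the F statistic, log2 CPM used a prior count of 2, and CPM values are TMM-scaled. The procedure was tested on simulated data. Totals ran from 15726323 to 20486584, and since reads carry no molecular identifiers, counting error understates the error. No library copied another (chi-square over degrees of freedom 2.25 to 4.29 within groups).

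Named were the called members, the 5 highest and 5 lowest per kb, members fixed by role, the paralogs, up to 2 called genes per direction in each other list and 3 per direction among pseudogenes. A few genes are left out of the text and plots and are not reported here. Other settings were DESeq2 size factors, library size, upper quartile and TMM without ribosomal protein genes; no filter or 1 CPM in 3 libraries; DESeq2 1.42.0; limma-voom (limma 3.58.1); non-robust estimation; a replicate block; protein-coding genes alone; sums with pseudogenes; removal of a lowess trend (span 0.3) with level, GC content or exon length; and each library left out.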

Additional observations from a re-analysis of the deposited data

How the results depend on the processing

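Each result was computed under up to 21 other settings. The counts over all genes tested stayed within 1.5 times, with 3213 higher and 1971 lower under library size scaling. The 0.345 point difference in share of counts ran from 0.277 to 0.426 without 1 library. Ribosomal protein genes called higher numbered 14 with library size scaling, 14 with limma-voom, 13 with non-robust estimation and 36 with the level trend removed, and 6 to 14 without 1 library. Those called lower numbered 7 with the level trend removed and 9 to 15 without 1 library. The median log2 fold change was 0.036 with library size scaling, 0.13 with the level trend removed and -0.028 to 0.025 without 1 library. Same-numbered replicates did not deviate together (r of 0.0034, 0.065 and -0.015). The labels state no pairing, and these correlations cannot tell whether same-numbered samples were handled together. The replicate block gave 11 higher and 14 lower, where the test without it gave 7 and 12. Over 1313 values of the 63 named genes, 1202 kept direction and call. With direction kept, 52 lost and 20 gained the call. The other 39 changed direction, and none of them was called both there and in the main test. Some of the 39 also gained or lost a call, as RPS2 did with the level trend removed and RPL39 when summed with its pseudogenes. The cause was not tested.

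Directions changed as follows, in log2 fold changes. Summed with pseudogenes, RPL39, called at -0.31 alone, was at 0.070, RPL17 at 0.24 and RPL22 at 0.0024. With library size scaling, RPS2 was at 0.024, RPS19 at 0.036, RPS27A at 0.023, RPL7 at 0.022, RPL22 at 0.013 and RPS14 at 0.0054. With the level trend removed, RPS2 was at 0.14, RPS24 at 0.099, RPS19 at 0.11, RPS27A at 0.096, RPL7 at 0.11, RPL22 at 0.064, RPS14 at 0.100 and RPSA at 0.092. With the GC trend removed, RPS2 was at 0.036 and RPS19 at 0.047. With the length trend removed, RPS19 was at 0.0074. Among protein-coding genes, RPS19 was at 0.00078. With DESeq2 size factors, RPLP0 was at -0.0038. With DESeq2, RPLP0 was at -0.0038. With TMM factors free of ribosomal protein genes, RPLP0 was at -0.0054. Unfiltered, RPLP0 was at -0.0044. At 1 CPM in 3 libraries, RPLP0 was at -0.00046. Without 1 library the range was -0.16 to 0.025 for RPL17, -0.17 to 0.039 for RPS15A, -0.013 to 0.093 for RPLP1, -0.035 to 0.11 for RPLP2, -0.0069 to 0.070 for RPL11, -0.037 to 0.021 for RPLP0, -0.036 to 0.0074 for RPS19, -0.051 to 0.0065 for RPS27A, -0.058 to 0.025 for RPL7, -0.0037 to 0.18 for FAU and -0.00045 to 0.079 for RPL36AL. Depth limits the lowest genes, since RPS10 had as few as 75 counts in a library.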
